A study of Mus musculus with 4 samples.

Results

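The data described here are the binding sites of 3 transcription factors at the genes of 2 prohormone convertases (Pcsk1 and Pcsk2) and 3 granins (Chga, Chgb and Scg2), mapped by chromatin immunoprecipitation followed by sequencing (ChIP-seq). A site belonged to a locus when its summit lay in a fixed mm9 window around the gene. The windows are chr13:75120000-75380000 for Pcsk1, chr2:143270000-143740000 for Pcsk2, chr12:103690000-103910000 for Chga, chr2:132500000-132725000 for Chgb and chr1:79330000-79540000 for Scg2. They held 101 of the 60439 deposited sites, namely 31 of 17453 Insm1 sites, 26 of 14607 Neurod1 sites and 44 of 28379 Foxa2 sites.

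The groups were a pull-down with an antibody to Insm1, one to Neurod1, one to Foxa2 and a control pull-down with IgG, with 1 sample each. All came from one kind of cell, a beta cell line made from the islets of RIP1-Tag2 mice aged 6 weeks, at passages 10 to 15, grown in 25 mmol/l glucose. The strain background was mixed C57BL/6, 129/ola and CBA/J, and the rat insulin promoter of the transgene drives a viral oncogene, so these are transformed cells and not islets. According to the series text the Insm1 and Foxa2 pull-downs were repeated, but 1 site list per factor was used and no IgG list, so no spread between replicates can be given and no difference below was tested over samples. Read depth behind the lists is unknown.

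Pcsk1 and Pcsk2 encode the endoproteases PC1/3 and PC2, which cut prohormones at pairs of basic residues in secretory granules and together turn proinsulin into insulin. Chga (chromogranin A), Chgb (chromogranin B) and Scg2 (secretogranin II) encode acidic proteins that are packed into the same granules, aid their formation and are themselves cut into peptides. Among the factors mapped, Insm1 is a zinc finger protein made in endocrine cells and neurons, Neurod1 a basic helix-loop-helix protein that binds E-boxes, and Foxa2 a forkhead protein able to bind closed chromatin.

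The sequences just before the 5 gene starts show which letters of the known E-box and forkhead motifs stand there. They are the 250 bases upstream of each start in RefSeq (build GRCm38.p6), written 5′ to 3′ in the direction of the gene. Capitals mark 3 motifs, each searched on both strands: the E-box CANNTG, the forkhead motif TGTTTAC and the cAMP response element half-site TGACGT, the last of which is bound by factors of the CREB family. The positions are chr13:75089607-75089856 (plus strand) for Pcsk1, chr2:143545883-143546132 (plus) for Pcsk2, chr12:102554691-102554940 (plus) for Chga, chr2:132781392-132781641 (plus) for Chgb and chr1:79440027-79440276 (minus) for Scg2. These positions are in another build than the sites and cannot be set against them.
Pcsk1: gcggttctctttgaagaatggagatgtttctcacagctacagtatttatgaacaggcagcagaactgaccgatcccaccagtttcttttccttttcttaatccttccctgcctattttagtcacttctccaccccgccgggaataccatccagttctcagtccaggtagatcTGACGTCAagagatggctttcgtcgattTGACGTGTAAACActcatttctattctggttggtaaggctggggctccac
Pcsk2: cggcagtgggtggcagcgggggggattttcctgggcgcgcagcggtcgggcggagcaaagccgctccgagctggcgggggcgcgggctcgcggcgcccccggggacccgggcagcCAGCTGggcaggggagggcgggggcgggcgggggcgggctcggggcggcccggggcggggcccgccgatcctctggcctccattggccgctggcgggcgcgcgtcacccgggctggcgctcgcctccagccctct
Chga: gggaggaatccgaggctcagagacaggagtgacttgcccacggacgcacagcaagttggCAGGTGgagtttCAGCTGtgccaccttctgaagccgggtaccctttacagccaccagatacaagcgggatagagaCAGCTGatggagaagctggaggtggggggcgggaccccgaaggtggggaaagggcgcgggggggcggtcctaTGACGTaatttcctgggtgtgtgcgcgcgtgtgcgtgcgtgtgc
Chgb: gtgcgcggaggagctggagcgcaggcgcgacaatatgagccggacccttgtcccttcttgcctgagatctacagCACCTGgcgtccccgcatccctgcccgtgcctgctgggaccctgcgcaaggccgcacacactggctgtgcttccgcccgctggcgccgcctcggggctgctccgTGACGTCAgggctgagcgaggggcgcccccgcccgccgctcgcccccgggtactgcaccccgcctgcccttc
Scg2: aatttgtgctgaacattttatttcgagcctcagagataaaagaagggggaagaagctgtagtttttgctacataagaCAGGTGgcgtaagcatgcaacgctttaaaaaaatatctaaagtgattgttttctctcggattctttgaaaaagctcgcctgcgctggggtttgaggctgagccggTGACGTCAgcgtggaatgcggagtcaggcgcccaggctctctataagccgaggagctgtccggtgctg

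Of the 5 upstream sequences, 4 held a cAMP response element half-site (Pcsk1, Chga, Chgb and Scg2), a motif found in 6.5% of the 32851 upstream sequences in the table. In Pcsk1, Chgb and Scg2 the half-sites of both strands overlapped to form the palindrome TGACGTCA, which began 78, 72 and 68 bases before the start. An E-box stood in Pcsk2, Chga, Chgb and Scg2, with 3 of them in Chga, but 66.2% of all upstream sequences held one. The forkhead motif was found in Pcsk1 alone, on the opposite strand as GTAAACA, 44 to 38 bases before the start and directly after a half-site; 3.2% of all upstream sequences held it. Bases G and C made up 82.4% of the Pcsk2 sequence and 46.8% to 72.8% of the others, against a median of 52.4% over the table. A match is a run of letters and not a measured site.

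All 5 loci carried sites of all 3 factors, at a higher density than each list as a whole. Over the 1385 kb of the 5 windows there were 22.4 Insm1 sites per Mb, against 6.82 per Mb over the Insm1 list. Neurod1 had 18.8 sites per Mb in the windows and 5.70 over its list, and Foxa2 had 31.8 and 11.0. The windows were thus 3.28, 3.29 and 2.88 times as dense as the lists. The loci were chosen with earlier results of these data known, and how far this bears on their densities, tile shares and overlaps was not tested. The windows were also set beside fixed tiles of the same length along all chromosomes, as a description without a test. Many tiles hold no site at all, so each share of tiles is given over all tiles and then over those with at least 1 site of the factor.

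In the windows as set, the granin loci as a class were denser than the convertase loci for every factor, with Chga an exception for Foxa2 at 18.2 sites per Mb. The 2 convertase windows (730 kb) held 12.3 sites per Mb for Insm1, 12.3 for Neurod1 and 27.4 for Foxa2, and the 3 granin windows (655 kb) held 33.6, 26.0 and 36.6. This contrast depends on window length, and for Foxa2 it nearly vanished in wider windows. With windows widened by 50 kb at both ends, Foxa2 sites numbered 6 at Pcsk1, 21 at Pcsk2, 4 at Chga, 14 at Chgb and 10 at Scg2. Per Mb, the Foxa2 densities of both classes were then nearly equal. Insm1 sites then numbered 3 at Pcsk1, 11 at Pcsk2, 7 at Chga, 9 at Chgb and 7 at Scg2. Chgb had 8 Insm1 sites, a number reached by 1.39% of all 225 kb tiles and 2.41% of those with a site, and 12 Foxa2 sites, reached by 0.753% and 1.02%. Scg2 had 7 Insm1 sites, reached by 2.05% and 3.65% of 210 kb tiles, and Chga had 7, reached by 2.52% and 4.37% of 220 kb tiles. Chga was the only one of these loci with fewer Foxa2 than Insm1 sites, at 4 and 7, and 4 or more Foxa2 sites were found in 26.4% of all tiles and 35.7% of those with a site. Pcsk1 had 3 Insm1 sites, reached by 28.0% and 45.8% of 260 kb tiles. Pcsk2 had 6 Insm1 sites (21.9% and 29.5% of 470 kb tiles) and 14 Foxa2 sites (5.11% and 5.8%). For Neurod1, the 3 sites at Pcsk1 were reached by 22.6% and 41% of tiles, and the 6 at Pcsk2 by 16.1% and 23%. The 6 Neurod1 sites at Chga were reached by 3.6% and 7%, the 6 at Chgb by 3.72% and 7.15%, and the 5 at Scg2 by 5.66% and 11.2%.

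**Figure D1:**
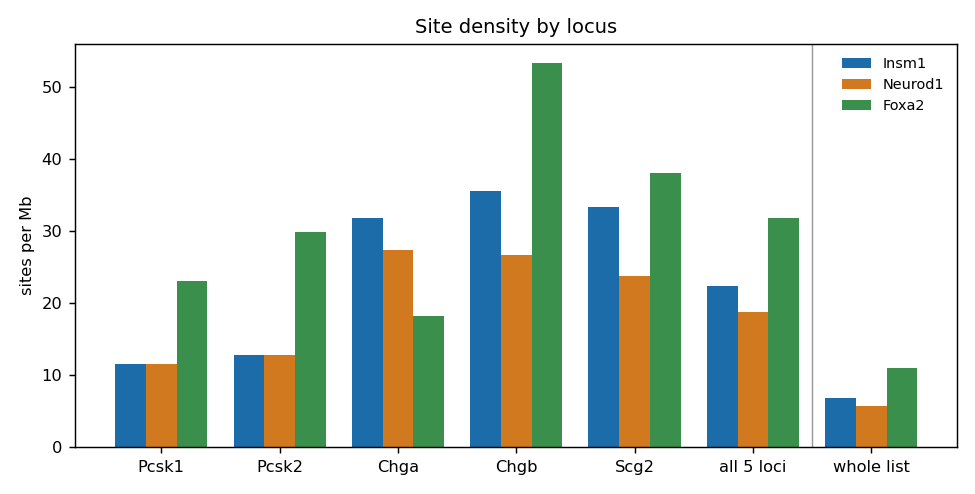
Sites per Mb (vertical axis) in each of the 5 windows, in the 5 windows together and, right of the grey line, over the whole list, with 1 bar per factor. Chga, Chgb and Scg2 stand at 31.8 to 35.6 Insm1 sites per Mb, above Pcsk1 and Pcsk2 at 11.5 and 12.8 and the whole list at 6.82.

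Sites of the factors coincided at these loci more often than over the lists. Among the 31 Insm1 sites, 19 shared at least 1 bp with a Neurod1 site and with a Foxa2 site, which is 61.3% (95% Wilson interval 43.8 to 76.3%), against 37.9% of the Insm1 list. Of the 26 Neurod1 sites, 19 held both partners, 73.1% (53.9 to 86.3%), against 44.9% of the list. Of the 44 Foxa2 sites, 19 did so, 43.2% (29.7 to 57.8%), against 23.2%. In each list the share over all sites lies below the interval at the 5 loci. The intervals cover counting error only and take sites as independent, which neighbours in 1 window need not be.

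Sharing goes with score in these lists, so the shares with both partners were also taken from each list at the member sites' own deciles of score. They were then 42.2% for Insm1, 47.6% for Neurod1 and 26.8% for Foxa2. The lower limits of the intervals at the 5 loci were 43.8%, 53.9% and 29.7%, so the margin for Insm1 was small. The counts behind these intervals come from the same 19 overlaps of Insm1, Neurod1 and Foxa2 sites, so the comparisons are not separate. The intervals also take sites as independent, and whether score accounts for the higher sharing was not tested. Neurod1 was found at 22 of 31 Insm1 sites (71.0%, 53.4 to 83.9%) against 55.0% of the list, and Foxa2 at 23 (74.2%, 56.8 to 86.3%) against 56.2%. Among Neurod1 sites, 22 of 26 held Insm1 (84.6%, 66.5 to 93.8%) against 65.7%, and 19 held Foxa2 (73.1%) against 55.9%. Among Foxa2 sites, 23 of 44 held Insm1 (52.3%, 37.9 to 66.2%) against 34.6%, and 19 held Neurod1 (43.2%) against 28.8%. The list's share lies inside the interval for Insm1 sites with Neurod1 and for Neurod1 sites with Foxa2, and just below it in the other 4 cases. For Insm1 sites with Neurod1 the order turned round when the lists were limited to scores above their median, at 45.0% in the windows and 51.5% over the list.

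Merging overlapping sites gave 56 regions at the 5 loci, of which 19 were joint regions, holding all 3 factors (33.9%, 22.9 to 47.0%), against 16.9% of the 39412 regions of the series. Every locus contributed, with 3 regions at Pcsk1, 4 at Pcsk2, 3 at Chga, 4 at Chgb and 5 at Scg2. Leaving out each locus in turn gave shares of 29.8% to 39.5%. Scg2 had the highest share, 5 of 9 regions. Tiles with at least as many joint regions as the locus made up 7.21% of all tiles of its length for Pcsk1, 9.26% for Pcsk2, 5.3% for Chga, 2.15% for Chgb and 0.752% for Scg2. Over tiles with at least 1 joint region they made up 18.8% for Pcsk1, 16.9% for Pcsk2, 15.3% for Chga, 6.11% for Chgb and 2.24% for Scg2. These counts depend on the window ends: with windows shortened by 50 kb at both ends, Scg2 and Pcsk2 had 4 each. Foxa2 alone made up 21 of the 56 regions (37.5%, 26.0 to 50.6%), against 43.1% of the series. None of the Foxa2-only regions was at Chga, which had 8 regions in all (Wilson interval 0 to 32.4%).

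No region at the 5 loci held Neurod1 and Foxa2 without Insm1. A count of 0 of 56 allows a share of up to 5.36% (3 counts; the Wilson interval reaches 6.42%), and such regions made up 4.0% of the series, a share within both limits. Counted over sites, all 19 Neurod1 sites with Foxa2 also held Insm1 (100%, 83.2 to 100%), against 80.3% of the 8166 such sites in the Neurod1 list, which lies below the interval. The first share is over all regions and the second over Neurod1 sites with Foxa2 only, and neither was tested. Both rest on the same empty class, so they are not separate results. The interval over sites also takes neighbours in a window as independent, which they need not be. Sites with neither partner were 5 of 31 for Insm1 (16.1%, 7.09 to 32.6%) against 26.7%, 4 of 26 for Neurod1 (15.4%, 6.15 to 33.5%) against 23.3%, and 21 of 44 for Foxa2 (47.7%, 33.8 to 62.1%) against 59.8%. The list's share lies inside the interval in each of these 3 cases.

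**Figure D2:**
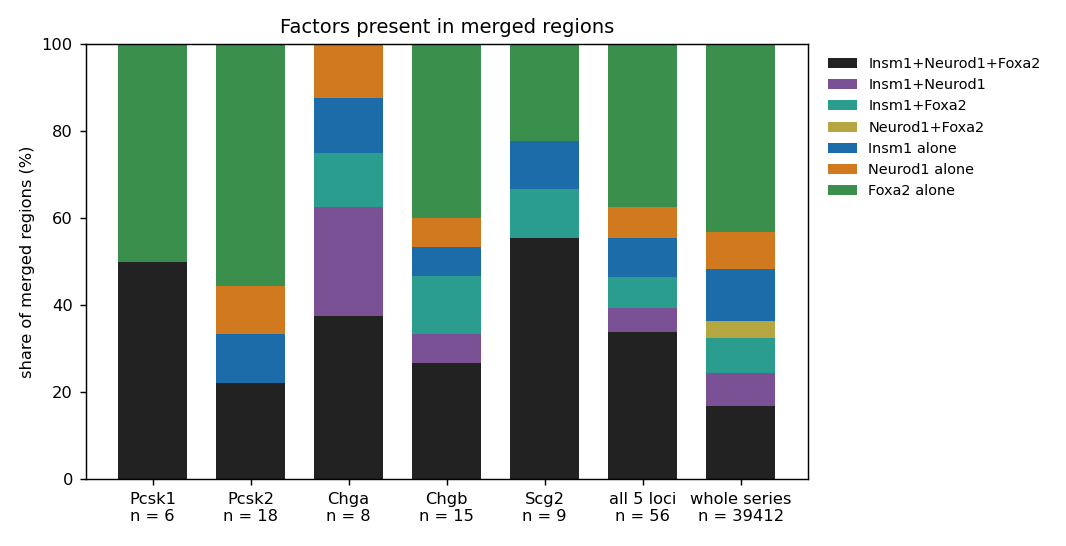
Share of merged regions (vertical axis, %) by the factors present, for the 5 loci, the 5 loci together and the whole series, with the number of regions under each bar. The dark part, all 3 factors, is 33.9% at the 5 loci and 16.9% in the series, and the Neurod1 and Foxa2 class without Insm1 appears in the series bar only.

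Regions with all 3 factors lay close to one another within these windows. Of the 19, 15 had another such region within 20 kb (78.9%, 56.7 to 91.5%), against 26.5% of the 6665 in the series, and the median distance to the nearest was 12.3 kb, against 59.7 kb. Within 10 kb the shares were 47.4% and 15.2%, and within 50 kb they were 84.2% and 46.3%. The windows held 13.7 joint regions per Mb, against 2.6 in the series, and the part of this density in the short distances was not tested. Neighbours in a pair count each other, so these regions are fewer independent cases than 19. The limit of 20 kb was chosen after the positions had been seen.

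At Pcsk1, the fewest sites went with some of the highest scores. The score is the authors' whole number per site, of undefined scale, and is therefore ranked within its own list; a percentile of 90 means that 90% of that list scored lower, with tied scores given their mean rank. All 3 Insm1 sites and all 3 Neurod1 sites of the window lay in regions with all 3 factors. The other 3 of its 6 Foxa2 sites stood alone and scored low, at 36, 19 and 38 (percentiles 40.8, 0.7 and 44.2). A score of 19 is the lowest of the Foxa2 list. The region at chr13:75171246-75171586 had a Foxa2 score of 866, rank 45 of 28379 in its list, and an Insm1 score of 396 (percentile 96.9), beside a Neurod1 score of 110 (75.6). This is the highest Foxa2 score in any of the 5 windows, 78.6 kb from the middle of the Pcsk1 window on its lower side.

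The other Pcsk1 regions formed a pair whose centres were 2060 bp apart. At chr13:75300931-75301140 the Insm1 score was 307 (percentile 93.3) and the Neurod1 score 318, rank 318 of 14607 and the highest Neurod1 score at the 5 loci, and the Foxa2 score was 124 (87.7). Its neighbour at chr13:75298851-75299099 had an Insm1 score of 100 (23.9), a Neurod1 score of 71 (48.4) and a Foxa2 score of 134 (89.2). The pair was thus alike in Foxa2 rank and far apart in Insm1 and Neurod1 rank. No site lay between the summits at 75200609 and 75295509, a stretch of 94.9 kb. In the RefSeq gene table Pcsk1 is flanked by Cast and Ell2, so sites of the window are assigned by position and may belong to a neighbouring gene, as at the other loci.

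Pcsk2 had the strongest of the 19 joint regions, and 3 of its 4 followed each other at 13094 and 12252 bp. At chr2:143492639-143492967 the scores were 505 for Insm1 (percentile 98.6, rank 238), 181 for Neurod1 (90.8) and 570 for Foxa2 (99.6, rank 118), and the mean of the 3 percentiles placed it 174th of the 6665 joint regions of the series. The next region, at chr2:143480465-143480636, had 195 for Insm1 (78.5), 160 for Neurod1 (88.2) and 142 for Foxa2 (90.2). The third, at chr2:143467330-143467582, had 219 for Insm1 (83.7), 75 for Neurod1 (52.9) and 187 for Foxa2 (94.0).

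The fourth joint region of Pcsk2 lay apart, at chr2:143386290-143386615, with 228 for Insm1 (85.3), 71 for Neurod1 (48.4) and 207 for Foxa2 (95). All 4 regions thus stood at or above the 90th percentile of the Foxa2 list, and none of the other 4 loci had more than 1 such Foxa2 site. Most other Pcsk2 regions, 10 of 14, were Foxa2 alone, with scores of 25 to 129. These 10 made up 55.6% of its 18 regions (33.7 to 75.4%), against 43.1% of the series, a share inside the interval. No site was found between the summits at 143528291 and 143693216, 165 kb and the widest gap between summits at the 5 loci. Pcsk2 is also the longest of the genes, 270152 bp in the RefSeq table, against 45442 bp for Pcsk1 and 5661 bp for Scg2.

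**Figure D3:**
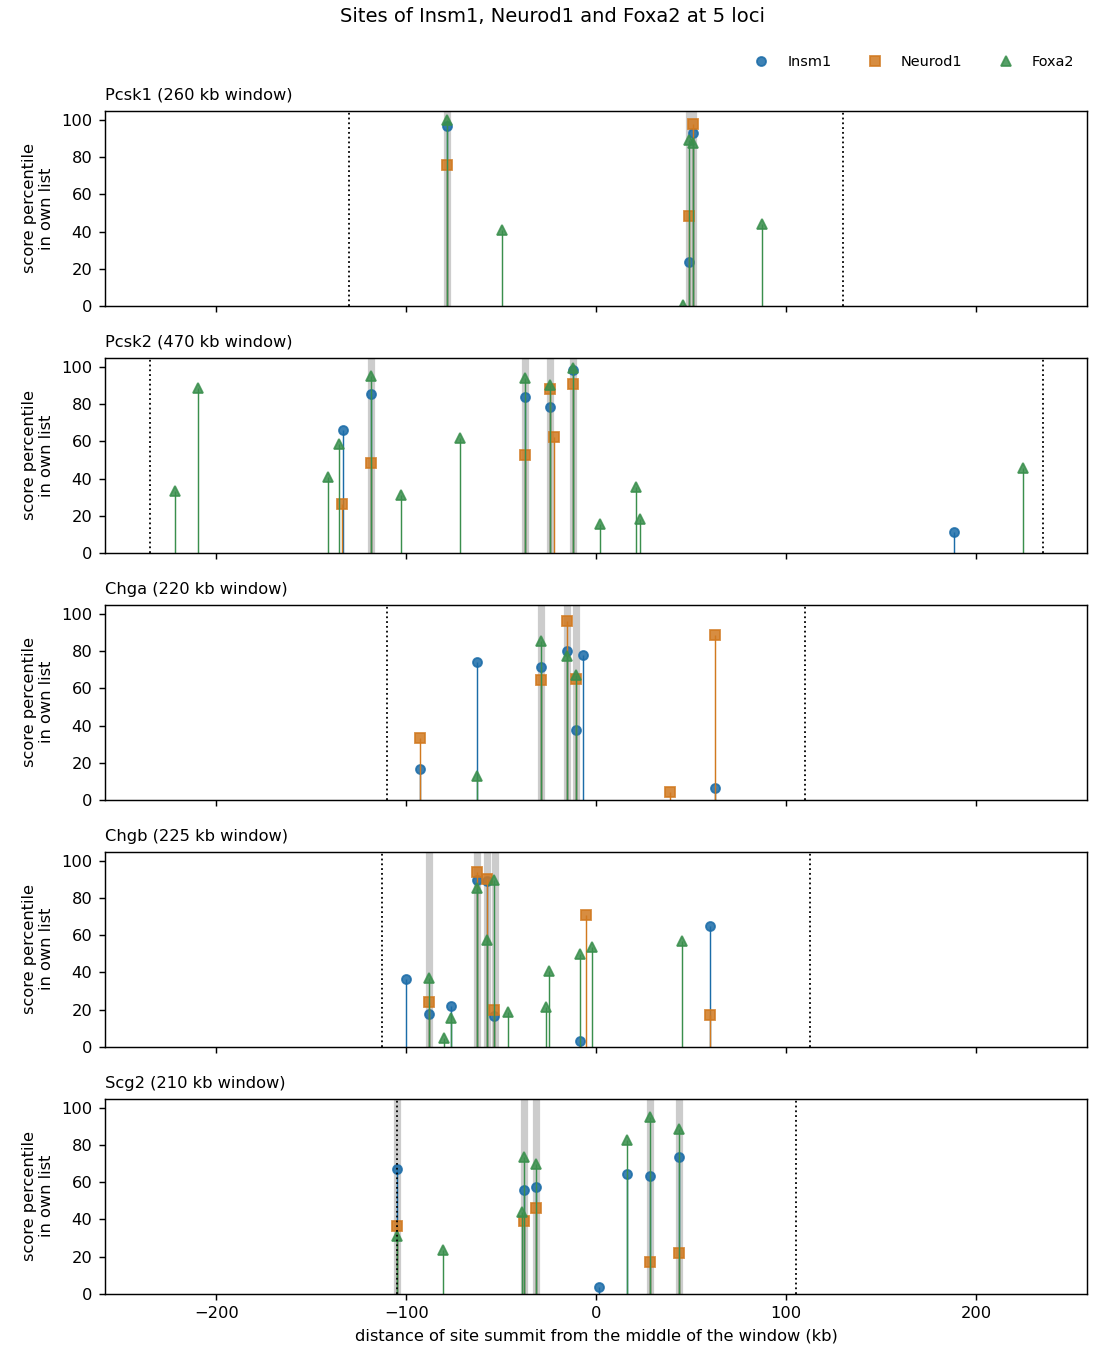
Each site of the 5 windows by the distance of its summit from the middle of the window (horizontal axis, kb) and its score percentile in its own list (vertical axis), with blue circles for Insm1, orange squares for Neurod1 and green triangles for Foxa2. Grey bars mark the 19 regions with all 3 factors and dotted lines the window ends. At Chgb the 4 joint regions lie on one side of the window, and the right-hand part of the Pcsk2 window is nearly empty.

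Chga had all 3 of its joint regions within 18.5 kb, and Neurod1 ranked high at one of them. At chr12:103784658-103784879 the Neurod1 score was 259, rank 555 of 14607 (percentile 96.2), the Insm1 score 203 (80.3) and the Foxa2 score 82 (77.5). The region 4732 bp away, at chr12:103789334-103789667, scored 114 for Insm1 (37.7), 90 for Neurod1 (65.3) and 61 for Foxa2 (67.4). The remaining one, at chr12:103770827-103771091, scored 171 for Insm1 (71.4), 89 for Neurod1 (64.6) and 113 for Foxa2 (85.7), the highest Foxa2 score of the locus. No Chga site of Insm1 or Foxa2 reached the 90th percentile of its list.

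In the Chga window 2 of 8 regions held Insm1 and Neurod1 without Foxa2 (25%, 7.15 to 59.1%), against 7.5% of the series. The share of the series lies inside that interval. Of the 8, 1 held Insm1 alone (12.5%), against 11.8% of the series, and 1 held Neurod1 alone (12.5%), against 8.65%. A region with Insm1 and Neurod1, named after its values were seen, lay at chr12:103862215-103862382 with a Neurod1 score of 163 (percentile 88.6) and an Insm1 score of 83 (6.2). The region with Insm1 alone, named likewise, lay at chr12:103793136-103793364 and scored 193 (78.0), the highest of the 5 Insm1 sites with neither partner. The window had no site over 45.5 kb between the summits at 103793208 and 103838745, nor in the 47.7 kb after its last summit. Golga5 and Itpk1 flank Chga in the RefSeq table.

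At Chgb, 3 of the 4 joint regions followed each other at 5022 and 3982 bp, and their factors ranked differently. The first, chr2:132549602-132550303, scored 262 for Insm1 (percentile 89.7), 218 for Neurod1 (94.0) and 113 for Foxa2 (85.7). The next, at chr2:132554875-132555073, scored 258 for Insm1 (89.4), 179 for Neurod1 (90.5) and 49 for Foxa2 (57.7). The last, at chr2:132558772-132559141, scored 93 for Insm1 (16.5), 53 for Neurod1 (19.7) and 137 for Foxa2 (89.6), the highest Foxa2 score of the locus.

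Insm1 and Neurod1 were thus high together at 2 neighbouring Chgb regions and low together at the one where Foxa2 ranked highest. The remaining joint region, at chr2:132524270-132524405, was low for all, with 94 for Insm1 (17.5), 55 for Neurod1 (24.1) and 34 for Foxa2 (37.3). Chgb had the lowest median Insm1 percentile of the 5 loci, 29.3 over 8 sites. Foxa2 alone made up 6 of its 15 regions (40%), close to the 43.1% of the series. The widest gap between summits was 47.2 kb, from 132610526 to 132657761, and the last summit lay 52.6 kb before the window end. Shld1 and Trmt6 flank Chgb in the RefSeq table.

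In the windows as set, Scg2 had the most joint regions of the 5 loci. With windows widened by 50 kb at both ends Pcsk2 had 6 and Scg2 5, and with windows shortened by 50 kb both had 4. Scg2 also had the lowest median Neurod1 percentile of the 5 loci, 36.4, although the lowest single Neurod1 percentile was at Chga (4.3). None of its 5 Neurod1 sites scored above the median of the Neurod1 list, which is 72, against 13 of the 21 Neurod1 sites at the other 4 loci. Above their list medians were 6 of its 7 Insm1 sites, against 14 of 24 at the other loci, and 5 of its 8 Foxa2 sites, against 18 of 36. This low rank of Neurod1 at Scg2 was noticed in the values and not tested.

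The strongest Foxa2 site of Scg2, 212 (percentile 95.2), lay in the region at chr1:79463240-79463555, where Insm1 scored 152 (63.2) and Neurod1 scored 52 (17.2). The region at chr1:79478332-79478512 had the highest Insm1 score of the locus, 178 (73.8), with 54 for Neurod1 (22.1) and 130 for Foxa2 (88.6). The pair at chr1:79396998-79397312 and chr1:79403007-79403391, 6044 bp apart, was more even, with Insm1 scores of 139 and 141, Neurod1 scores of 64 and 69, and Foxa2 scores of 73 and 65. The Neurod1 score of 69 is the highest of the locus. The fifth region, at chr1:79330244-79330472, scored 161 for Insm1, 62 for Neurod1 and 31 for Foxa2, and its Neurod1 summit lay only 330 bp inside the window. No site lay over 41.3 kb between the summits at 79354577 and 79395907, nor in the 61.5 kb after the last summit, and Kcne4 and Ap1s3 flank the gene in the RefSeq table.

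Over the 19 joint regions, the median score was above that of all joint regions of the series for Foxa2 and Insm1, and below it for Neurod1. The median Foxa2 score was 124 (range 31 to 866), against 85 over all joint regions of the series, and 12 of 19 exceeded that median. Insm1 had a median of 178 (93 to 505), against 168, with 11 of 19 above. Neurod1 had a median of 75 (52 to 318), against 89, with 8 of 19 above. The ranges are wide, and none of these medians was tested.

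Joint regions of the convertase loci had higher median percentiles than those of the granin loci in each list. At the 7 convertase regions the median percentile was 85.3 for Insm1, 75.6 for Neurod1 and 94.0 for Foxa2, and at the 12 granin regions it was 65.2, 42.6 and 75.7. The ranges overlapped, from 23.9 to 98.6 at convertases and from 16.5 to 89.7 at granins for Insm1, from 48.4 to 97.8 at convertases and from 17.2 to 96.2 at granins for Neurod1, and from 87.7 to 99.8 at convertases and from 31.2 to 95.2 at granins for Foxa2. The granin loci were not alike for Neurod1, whose percentiles were 17.2 to 45.9 at Scg2 (5 of the 12 granin regions), 64.6 to 96.2 at Chga and 19.7 to 94.0 at Chgb. At Pcsk1 they were 48.4 to 97.8, and at Pcsk2 48.4 to 90.8. The split into convertases and granins follows the genes' roles, but no test was made with so few loci.

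**Figure D4:**
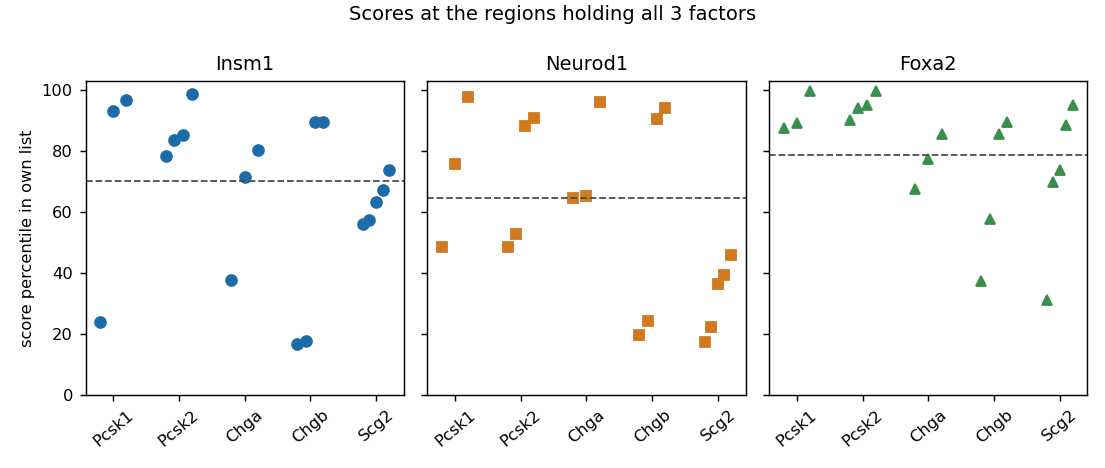
Score percentile in its own list (vertical axis) of each of the 19 regions with all 3 factors, by locus (horizontal axis) and factor, with the dashed line at the median of all 6665 such regions of the series. All 7 Foxa2 points of Pcsk1 and Pcsk2 stand at 87.7 or above, and all 5 Neurod1 points of Scg2 stand below the dashed line.

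Taking all member sites and not only joint regions, median scores were close to those of the lists for Neurod1 and Foxa2 and higher for Insm1. The median Insm1 score was 156 over 31 sites, against 130 over the list, with a median percentile of 65.1 and 20 of 31 above the list median. Neurod1 had a median of 73 over 26 sites, against 72 (median percentile 50.6), and Foxa2 had 46.5 over 44 sites, against 42 (55.2). Sites at or above the 90th percentile were 3 of 31 for Insm1, against 9.95% of the list, 5 of 26 for Neurod1, against 10.0%, and 6 of 44 for Foxa2, against 10.0%. By partners, the median Insm1 score was 178 with both (n = 19), 98 with 1 partner (n = 7) and 113 with neither (n = 5), against 168, 124 and 106 over the whole list.

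Median distances between summits of shared sites were above those of the lists, though only slightly for Insm1 with Foxa2. At 22 shared sites the Insm1 and Neurod1 summits lay a median of 39 bp apart (range 6 to 150 bp), against 31 bp over the list. The Insm1 and Foxa2 summits were 43 bp apart at 23 shared sites (range 1 to 117 bp), against 40 bp. For Neurod1 and Foxa2 the median was 56 bp at 19 shared sites (range 7 to 141 bp), against 41 bp. These differences were not tested. Summits within 25 bp of each other were found at 9 of 22, 4 of 23 and 5 of 19 of these sites, against 43.7%, 35.2% and 35.0% of the lists. The first of these, for Insm1 and Neurod1, is close to the share of the list. The 3 summits of a joint region spanned a median of 68 bp at the 5 loci, against 65 bp in the series. At chr1:79403007-79403391 of Scg2 they spanned 21 bp, the least of the 19, and at chr2:143386290-143386615 of Pcsk2 they spanned 150 bp, the most.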

How the data were processed

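The submitters' processing notes name Bowtie 0.12.7, MACS 1.4, CASAVA and the mm9 build; for settings, threshold, control and treatment of repeats, nothing is given in the sources used. In the deposited lists, which lack a header, each line gives chromosome, start, end, an inner position read as the summit, and a whole number treated as the authors' score. Whether starts count from 0 or 1 is not stated, and coordinates are as deposited.

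Sites were placed by summit, and called shared when they overlapped by at least 1 bp. Regions are merged overlapping sites of the 3 lists. Densities use the span from first to last summit per chromosome. Shares carry 95% Wilson intervals. With 1 list per factor nothing was tested over samples, and scores were never compared between lists. The loci were chosen with earlier results of these data known. Named were the best site of each factor, all joint regions and the widest gap between summits per locus. An mm9 genome or annotation was not used here; sites are therefore not placed in exons, introns or promoters and no site sequence is printed; the RefSeq tables (GRCm38.p6) gave upstream sequences, gene lengths and neighbours for 5 of 5 genes. Alternatives were other sharing rules, score and width limits and other windows. Overlap counting was checked on planted sites. Python 3.11.15, pandas 2.3.3, numpy 2.4.6 and statsmodels 0.14.6 were used.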

Additional observations from a re-analysis of the deposited data

How the results depend on the processing

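Of 166 alternative values for 38 results, 146 stayed within 1.5 times a count, inside the interval of a share or inside the quartiles of a median. The 146 include all values without sites of at most 60 bp. No member site was that narrow, so these values were fixed in advance and say nothing about stability. With each list limited to scores above its median, the windows held 20 Insm1, 13 Neurod1 and 23 Foxa2 sites and 9 joint regions, none of them at Scg2, where no Neurod1 site was left; fewer sites enter by construction. At that setting 45.0% of Insm1 member sites held Neurod1, against 51.5% of the list, the one of 6 shares whose order against the list turned round at that setting; the cause was not tested. The share of joint regions near another was 47.4% within 10 kb in place of 20 kb, a tighter limit. The number of joint regions was 19 with centres within 100 bp and with sites widened by 500 bp. It was 16 with windows shortened by 50 kb at both ends and 21 with windows widened by 50 kb. At Chgb shortened windows left 2 joint regions of 4, since its joint regions lie towards one end. Leaving out a locus, the limits on distance and the shares at matched deciles of score were added after the data were seen. No paired analysis was possible because each factor has 1 list. No replicate could be left out, and the unknown depth limits what the absence of a site means.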

Other observations

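At the strongest joint region of Pcsk2, the site began at base 143492639 of chromosome 2 in all 3 lists, while the summits lay 40 bp (Insm1 and Neurod1), 94 bp (Insm1 and Foxa2) and 54 bp (Neurod1 and Foxa2) apart. An identical start in the 3 lists was found at 6 of the 6665 joint regions of the series (0.09%) and at 1 of the 19 described here. This was noticed after the positions had been seen, and its cause was not tested.

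Member sites were not narrow. The narrowest Insm1 site was 115 bp wide, the narrowest Neurod1 site 73 bp and the narrowest Foxa2 site 130 bp, so none was at or below 60 bp. The widest was a Foxa2 site of 701 bp at Chgb, where the Insm1 and Neurod1 sites of the same region ranked in the 89.7 and 94.0 percentiles.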
